A study of Mus with 10 samples.

Results

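*Nnt* and 9 other redox genes, 10 in all, were followed in liver type 1 innate lymphoid cells (ILC1s). They were *Nnt* and *Idh2*, which supply mitochondrial NADPH, the glutathione peroxidase genes *Gpx8*, *Gpx7*, *Gpx1* and *Gpx4*, the glutathione reductase gene *Gsr*, the thioredoxin reductase genes *Txnrd1* and *Txnrd2*, and the peroxiredoxin gene *Prdx3*. All were taken by name, and all 10 were found among the 24564 genes of the deposited table. The set was chosen by the measured log2 fold changes of this same comparison, *Nnt* and *Gpx8* for their difference between the genotypes and the others by function beside them, so the values of the 10 genes are given as a description without p-values. The cells were sorted from C57BL/6 livers of young adult male or female mice. Ncr1+/+ mice carry the intact gene for the activating receptor NKp46, and in Ncr1gfp/gfp mice, described as NKp46-deficient, *gfp* takes its place. There were 5 libraries of each genotype, made from total RNA of the sorted cells, and the labels name no treatment. The Ncr1+/+ cells were gated with an antibody to NKp46 and the Ncr1gfp/gfp cells by GFP, next to shared gates on NK1.1, CD49a and CD49b. By the methods, the Ncr1+/+ mice were bought from The Jackson Laboratory, and the Ncr1gfp/gfp mice had been described before. The sources do not say that the mice were littermates, so that a difference of the mouse line and one of the *Ncr1* genotype cannot be told apart. Nor do they say that each library is a single mouse, so that p-values measure the spread between these libraries.

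Cells hold peroxides in check with glutathione and thioredoxin, small thiol carriers that pass electrons to peroxidases and are recharged with electrons from NADPH. Glutathione reductase and the thioredoxin reductases do the recharging, in the cytosol (*Txnrd1*) and in mitochondria (*Txnrd2*). In mitochondria, NADPH comes partly from isocitrate dehydrogenase (*Idh2*) and partly from nicotinamide nucleotide transhydrogenase (*Nnt*), an inner membrane protein that uses the proton gradient to move electrons from NADH to NADP. The C57BL/6J substrain is known to carry a deletion within *Nnt* that C57BL/6N lacks. The labels give C57BL/6 for every library. The study's reporting summary names C57BL/6J for both genotypes and has both bought from The Jackson Laboratory. The methods give C57BL/6 and, of these genotypes, name that supplier for Ncr1+/+ only. For Ncr1+/+ mice both thus agree on the supplier, and the summary gives the substrain as C57BL/6J. For Ncr1gfp/gfp mice only the summary names a supplier, and their substrain is not settled by these sources. The deposited values are sums over all exons of a gene, so that full-length and shortened *Nnt* transcripts cannot be told apart in them.

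*Nnt* and *Gpx8* were higher in every Ncr1gfp/gfp library than in every Ncr1+/+ library, and the other 8 genes overlapped between the genotypes. Levels are given as CPM, counts scaled to the size of the library after TMM normalization, so that libraries of unlike depth can be set side by side. Of the 10 genes, 9 passed the filter on low counts, and 2 of these 9, *Nnt* and *Gpx8*, were called at an adjusted p under 0.05 and a fold above 1.5 or below 0.7 in edgeR's quasi-likelihood test. Of all 11463 genes tested, 0.733% were called, 0.201% higher and 0.532% lower, and 0.567% were higher at an adjusted p under 0.05 with no fold limit. In 3.11% the libraries of the genotypes did not overlap, 1.28% with the higher values in Ncr1gfp/gfp and 1.82% with the lower. As *Nnt* and *Gpx8* were listed for this difference, nothing is read from their count. Both were above the filter's limit of 0.540 CPM in all 5 libraries of each genotype.

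**Figure D1:**
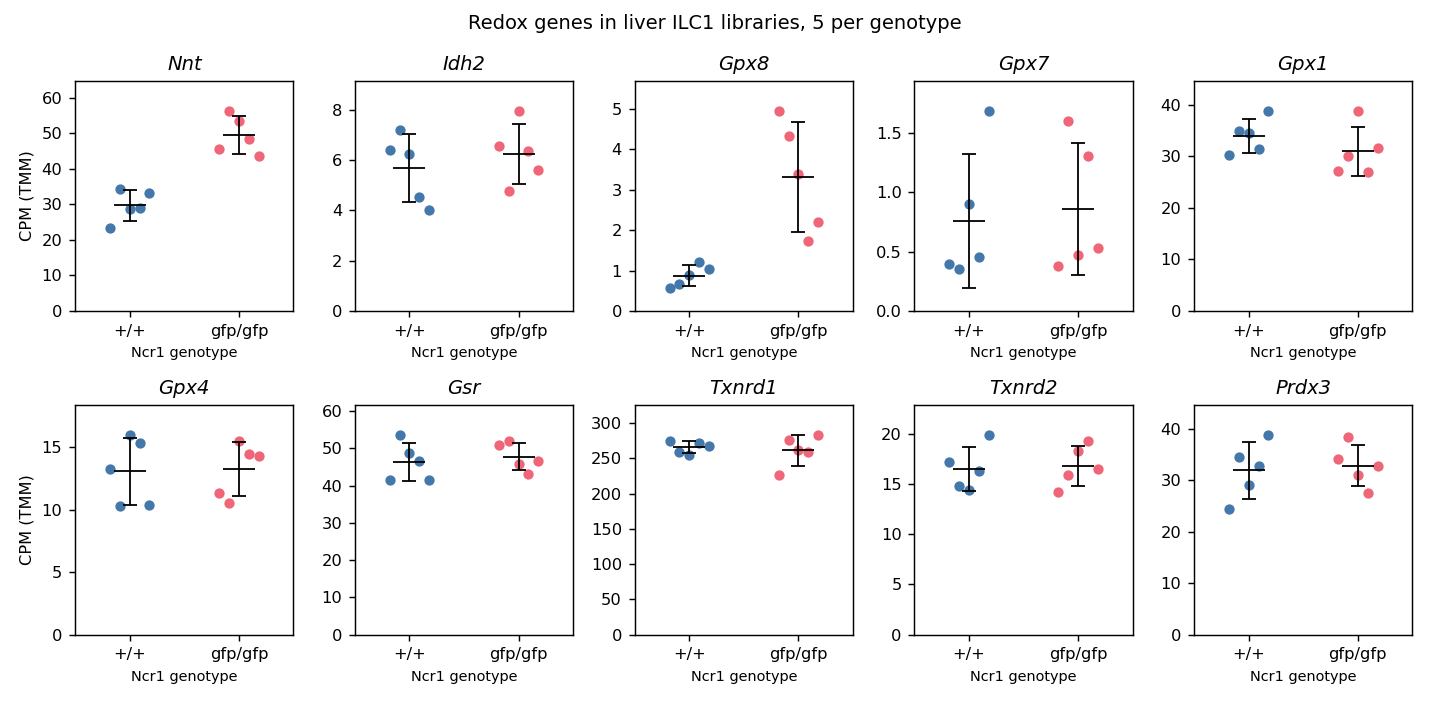
CPM of the 10 redox genes, 1 panel per gene with its own axis from 0; points are the 5 libraries of each genotype, replicates 1 to 5 from left to right, and bars are mean ± SD. The *Nnt* points lie between 43.6 and 56.2 in Ncr1gfp/gfp and between 23.3 and 34.4 in Ncr1+/+ libraries, the *Gpx8* points separate as well, and the other 8 panels overlap.

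*Nnt* is a minus-strand gene of chromosome 13, listed from 120123124 to 120198064 with 4860 bases of exon, in coordinates of a build that the table does not name and that are not those of mm10. Its CPM was 23.3, 34.4, 28.6, 28.8 and 33.3 in Ncr1+/+ replicates 1 to 5. In Ncr1gfp/gfp replicates 1 to 5 it was 45.5, 56.2, 53.3, 48.5 and 43.6. The lowest Ncr1gfp/gfp library stood above the highest Ncr1+/+ library, and each genotype kept within a narrow band. Mean *Nnt* levels were 49.4 ± 5.29 CPM and 29.7 ± 4.42 CPM (SD over 5 libraries), or 1.66-fold apart, which is 0.74 on the log2 scale with a standard error of 0.11. *Nnt* was well counted, with 415 to 1230 reads per library. *Nnt* RNA was thus measured in all libraries of both genotypes. When single libraries were dropped, the difference ranged from 0.66 to 0.79 on the log2 scale.

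*Idh2*, on chromosome 7 from 87239734 to 87260236, encodes the other mitochondrial NADPH source of the set. Ncr1+/+ replicates 1 to 5 had 6.39, 7.19, 6.25, 4.54 and 4.03 CPM. Ncr1gfp/gfp replicates 1 to 5 had 6.54, 4.75, 7.94, 6.36 and 5.59 CPM. The ranges overlapped almost wholly, and the log2 fold change of 0.13 was smaller than its standard error of 0.23. Per kilobase of exon (RPKM), the level of *Nnt* over that of *Idh2* within a library was between 1.27 and 2.89 in Ncr1+/+, with a median of 1.67. In Ncr1gfp/gfp libraries this ratio reached from 2.35 to 4.14 around a median of 2.67. The ratios of the genotypes overlapped, and *Idh2* itself was counted with only 74 to 163 reads.

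*Gpx8* encodes a glutathione peroxidase family member of the endoplasmic reticulum membrane that carries cysteine in place of selenocysteine. Like *Nnt*, it is a minus-strand gene of chromosome 13, listed from 113832971 to 113836596 with 1016 bases of exon. Its counts in Ncr1+/+ replicates 1 to 5 were 10, 15, 18, 24 and 19 reads. Those in Ncr1gfp/gfp replicates 1 to 5 were 78, 95, 64, 29 and 37 reads. As CPM these were 0.561, 0.662, 0.900, 1.21 and 1.03 against 4.95, 4.34, 3.39, 1.72 and 2.20. All 5 Ncr1gfp/gfp libraries lay above all 5 Ncr1+/+ libraries, with replicates 1 to 3 high among them and replicates 4 and 5 closer to the Ncr1+/+ range. Mean *Gpx8* levels were 3.32 ± 1.37 CPM and 0.874 ± 0.266 CPM (SD over 5 libraries), and the log2 difference was 1.92 with a standard error of 0.44. When single libraries were dropped, *Gpx8* kept its call in only 2 of 10 fits, those without Ncr1gfp/gfp replicate 4 or 5, although its log2 fold change stayed between 1.74 and 2.08. It was not called with the replicate number as a block, where its log2 fold change was 1.86.

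In the table, *Gpx8* lies within the span of *Cdc20b*, a gene on the opposite strand. The library kit does not keep strand, so that reads from the stretch they share cannot be told apart. *Cdc20b* had 4.32, 2.96, 2.95, 2.47 and 2.72 CPM in Ncr1+/+ replicates 1 to 5. In Ncr1gfp/gfp replicates 1 to 5 *Cdc20b* had 4.00, 4.48, 3.81, 6.25 and 3.15 CPM. The part of *Cdc20b* reads in the *Gpx8* counts was not tested. The values of *Cdc20b* overlapped between the genotypes. The log2 difference was 0.49 with a standard error of 0.30 (edgeR quasi-likelihood test, Benjamini-Hochberg adjusted p = 0.576).

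*Gpx7*, on chromosome 4 from 108072822 to 108079318, encodes the other endoplasmic reticulum peroxidase of this family. Ncr1+/+ replicates 1 to 5 gave 7, 8, 18, 9 and 31 reads, against 6, 35, 9, 22 and 9 reads for Ncr1gfp/gfp replicates 1 to 5. High and low libraries occurred in both genotypes, and *Gpx7* was the only gene of the 10 that did not pass the filter. Without the filter its log2 fold change was 0.19 with a standard error of 0.77, so that a change of the size of that of *Nnt* was not detectable at this depth.

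*Gpx1* (chromosome 9, 108241411 to 108242673) and *Gpx4* (chromosome 10, 79509911 to 79519184) encode selenoproteins. *Gpx1* is the main peroxidase for hydrogen peroxide in many cells, and *Gpx4* reduces lipid hydroperoxides and guards against ferroptosis. *Gpx1* was between 30.3 and 38.8 CPM in Ncr1+/+ and between 26.9 and 38.8 CPM in Ncr1gfp/gfp libraries, with a log2 fold change of -0.13 (standard error 0.11). *Gpx4* was at 13.2 ± 2.16 CPM in Ncr1gfp/gfp and 13.1 ± 2.68 CPM in Ncr1+/+ libraries, 0.02 apart on the log2 scale (standard error 0.17). For both genes the spread within a genotype was larger than the difference of the means.

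The enzymes that recharge glutathione and thioredoxin differed by less than the spread between libraries. *Gsr* (chromosome 8, 34763710 to 34808634) was at 47.8 ± 3.67 CPM in Ncr1gfp/gfp and 46.4 ± 5.14 CPM in Ncr1+/+ cells (SD over 5 libraries), 0.04 apart on the log2 scale (standard error 0.09). *Txnrd1* (chromosome 10, 82296696 to 82360469), by far the most abundant of the 10, had 262 ± 21.8 and 266 ± 8.44 CPM, with a log2 fold change of -0.02 (standard error 0.06). *Txnrd2* (chromosome 16, 18426510 to 18479166) had 16.8 ± 2.00 and 16.5 ± 2.19 CPM, with a log2 fold change of 0.03 (standard error 0.13). In the table, *Txnrd1* overlaps *Eid3* on its own strand. *Prdx3* (chromosome 19, 60939969 to 60950441), the mitochondrial peroxiredoxin that depends on thioredoxin, had 32.8 ± 4.00 and 31.9 ± 5.49 CPM, with a log2 fold change of 0.04 (standard error 0.12). When single libraries were dropped, the log2 fold changes of these 4 genes stayed between -0.05 and 0.12. None of them came near the 0.74 of *Nnt*, which was listed for its difference.

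Because CPM grows with the length of a transcript, genes were ordered by RPKM. In Ncr1+/+ ILC1s the order was *Txnrd1* (66.1 ± 2.10 RPKM), *Gpx1* (32.5 ± 3.19), *Prdx3* (22.1 ± 3.80), *Gsr* (17.4 ± 1.92), *Txnrd2* (8.68, with libraries from 7.59 to 10.5), *Gpx4* (8.51 ± 1.75), *Nnt* (6.11 ± 0.909), *Idh2* (3.34 ± 0.786), *Gpx8* (0.860 ± 0.262) and *Gpx7* (0.624 ± 0.465). Errors are SD over 5 libraries. Among neighbours in this order, *Prdx3* and *Gsr*, *Txnrd2* and *Gpx4*, *Gpx4* and *Nnt*, and *Gpx8* and *Gpx7* overlapped in their libraries. In Ncr1gfp/gfp ILC1s *Nnt* moved up to rank 5 at 10.2 ± 1.09 RPKM, with a mean above those of *Txnrd2* (8.84 ± 1.05) and *Gpx4* (8.62 ± 1.41), both of which it overlapped. *Gpx8* kept rank 9 at 3.27 ± 1.35 RPKM, but now overlapped *Idh2* (3.67 ± 0.697) and lay above every *Gpx7* value. Within a library, *Gpx8* was at 0.0190 to 0.0398 of the *Gpx1* level per length in Ncr1+/+ and at 0.0658 to 0.187 in Ncr1gfp/gfp ILC1s. Against *Gpx4* it was at 0.0637 to 0.151 in Ncr1+/+ and at 0.180 to 0.662 in Ncr1gfp/gfp ILC1s. Even where it was highest, *Gpx8* therefore remained below *Gpx4* and far below *Gpx1* per length.

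**Figure D2:**
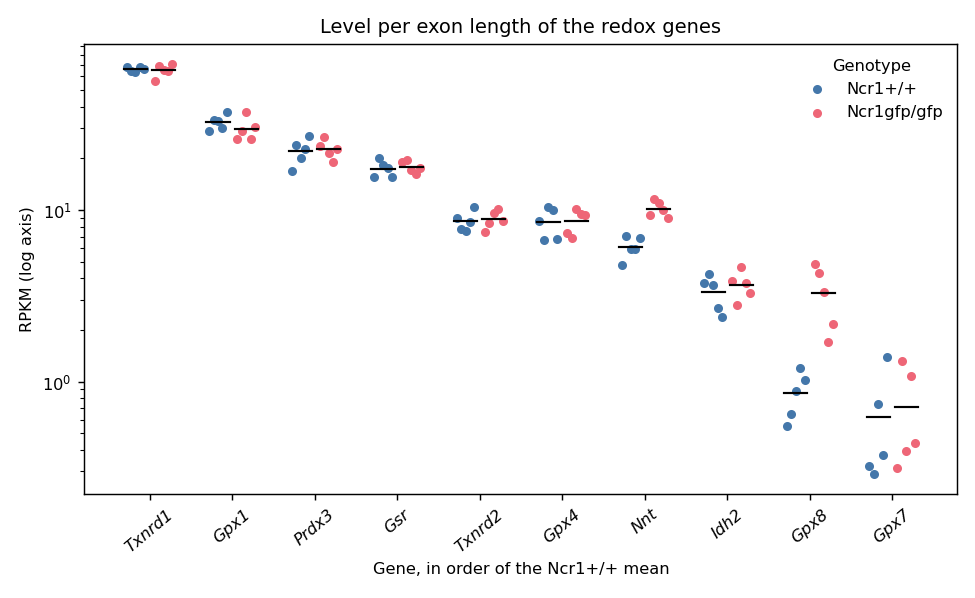
RPKM on a log axis of the 10 redox genes, ordered by their Ncr1+/+ mean; points are libraries, 5 per genotype, and black lines are means. *Nnt* moves from 6.11 to 10.2 RPKM and *Gpx8* from 0.860 to 3.27 RPKM, while the other 8 genes keep their level within the spread of the libraries.

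*Ncr1* itself, the targeted gene, was between 141 and 356 CPM in Ncr1gfp/gfp and between 1913 and 2144 CPM in Ncr1+/+ libraries. Library totals were between 15796253 and 22623133 counts. The ILC1 identity genes without *Ncr1* summed to between 3989 and 4251 CPM in Ncr1+/+ and between 3973 and 4271 CPM in Ncr1gfp/gfp libraries, with 1 of 7 genes called. Within this sum *Il7r*, the called gene, was lower, at 45.1 to 135 CPM against 131 to 199 CPM in Ncr1+/+ libraries, and *Itga1* was higher. Hepatocyte markers were at 75.8 CPM in Ncr1gfp/gfp replicate 3 and 38.0 CPM in Ncr1+/+ replicate 1, and at most 7.97 CPM in the other 8 libraries. With both libraries left out, the log2 fold change of *Gpx8* was 1.79 and that of *Nnt* 0.63, and of the 10 genes only *Nnt* was called.

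Markers of stellate cells and fibroblasts summed to 0.500 to 2.24 CPM in Ncr1+/+ and 0.594 to 3.99 CPM in Ncr1gfp/gfp libraries, and *Lum* was at 0 in every library. The median sum was 0.980 CPM in Ncr1+/+ and 2.26 CPM in Ncr1gfp/gfp libraries, and 1 of the 12 listed genes passed the filter. For 3 lists of other cell types the ranges of the summed levels did not overlap between the genotypes. T cell markers summed to 512 to 614 CPM in Ncr1+/+ and 665 to 845 CPM in Ncr1gfp/gfp libraries, with 3 of 6 tested genes called, *Cd3e* and *Cd8a* higher and *Cd28* lower in Ncr1gfp/gfp cells. Most of this sum was *Cd3g*, with 442 to 554 CPM and 595 to 793 CPM. *Cd28*, at 35.2 to 51.0 CPM in Ncr1+/+ and 10.2 to 31.5 CPM in Ncr1gfp/gfp libraries, went against the sum, so that the list did not move as 1. NK cell markers summed to 98.9 to 125 CPM and 137 to 210 CPM, with 1 of 5 tested genes called. That gene, *Itgam*, made up most of the rise, with 43.3 to 58.8 CPM and 76.0 to 121 CPM, while *Eomes*, *Klrg1*, *S1pr5* and *Itga2* overlapped between the genotypes. Myeloid markers summed to 1342 to 1519 CPM and 1672 to 1798 CPM, with 0 of 9 called. Nearly all of the myeloid sum was *Itgax*, which NK cells and ILC1s also express. The marker genes named here were picked from their lists after their values were seen. The part of these cells in the *Nnt* and *Gpx8* differences was not tested, and in bulk samples fewer cells of a type and less RNA per cell cannot be told apart. The sums overlapped for B cell markers (0.561 to 6.15 against 2.49 to 5.16 CPM), endothelial markers (113 to 148 against 129 to 152 CPM), cholangiocyte markers (10.4 to 19.6 against 15.4 to 27.1 CPM) and erythroid markers (0.400 to 10.1 against 0 to 2.28 CPM). Nearly all of the endothelial sum was *Pecam1*, at 111 to 145 CPM in Ncr1+/+ and 126 to 149 CPM in Ncr1gfp/gfp libraries. Nearly all of the cholangiocyte sum was *Epcam*, at 10.0 to 19.5 against 15.3 to 26.8 CPM. *Lyve1*, *Krt19* and *Sox9* were at 0 in every library.

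To see whether the wider redox system differed as well, 157 further genes of glutathione, thioredoxin, NADPH, selenium and oxidative folding pathways were examined. Of these, 123 passed the filter and 0 were called by edgeR's quasi-likelihood test, against 0.733% of all genes tested. An adjusted p under 0.05 with no fold limit was reached by 1 gene, *Osgin1*, against 1.35% of all genes. An unadjusted p under 0.05 was reached by 14 of the 123, against 11.4% of all genes. Of the 123 genes, 60 had a positive and 63 a negative log2 fold change, and 107 lay within 0.25 of 0 on the log2 scale. Their median log2 fold change was -0.0051, against 0.0027 over all genes tested. DESeq2, limma-voom and each edgeR alternative also called 0 of these genes, and between 0 and 4 of them had an adjusted p under 0.05.

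*Osgin1*, an oxidative stress response gene and a target of the transcription factor NRF2, fell by 0.27 on the log2 scale with a standard error of 0.06 (edgeR quasi-likelihood test, adjusted p = 0.0362). It had 112, 109, 117, 124 and 119 CPM in Ncr1+/+ replicates 1 to 5. The levels of *Osgin1* in Ncr1gfp/gfp replicates 1 to 5 were 94.0, 104, 93.4, 98.6 and 91.9 CPM. All Ncr1gfp/gfp libraries were below all Ncr1+/+ libraries, but its adjusted p reached 0.118 in the same test without Ncr1+/+ replicate 4 and was 0.0832 with the replicate number as a block. Dropping single libraries left it under 0.05 in 2 of 10 fits, those without Ncr1gfp/gfp replicate 2 or Ncr1+/+ replicate 2. *Txnip*, which encodes the inhibitor of thioredoxin and was picked out after its values were seen, had 767 ± 19.8 CPM in Ncr1gfp/gfp and 675 ± 38.3 CPM in Ncr1+/+ ILC1s. Its groups did not overlap, with a log2 fold change of 0.19 and an adjusted p of 0.0540 in edgeR's quasi-likelihood test. The adjusted p of *Txnip* was under 0.05 with DESeq2, limma-voom, upper-quartile normalization and a minimum of 10 counts in every library. It was not under 0.05 with no filter on low counts, with the likelihood ratio test or with the replicate number as a block. The other pathway genes without overlap, also named after their values were seen, were *Sesn3*, which was higher, and *Shmt2*, *Fth1* and *Selenos*, which were lower. Their log2 fold changes were 0.19, -0.22, -0.22 and -0.22, and none had an adjusted p under 0.05 in this test, while *Sesn3* and *Fth1* had one with DESeq2. Together these were 6 of 123 genes without overlap, against 3.11% of all genes.

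**Figure D3:**
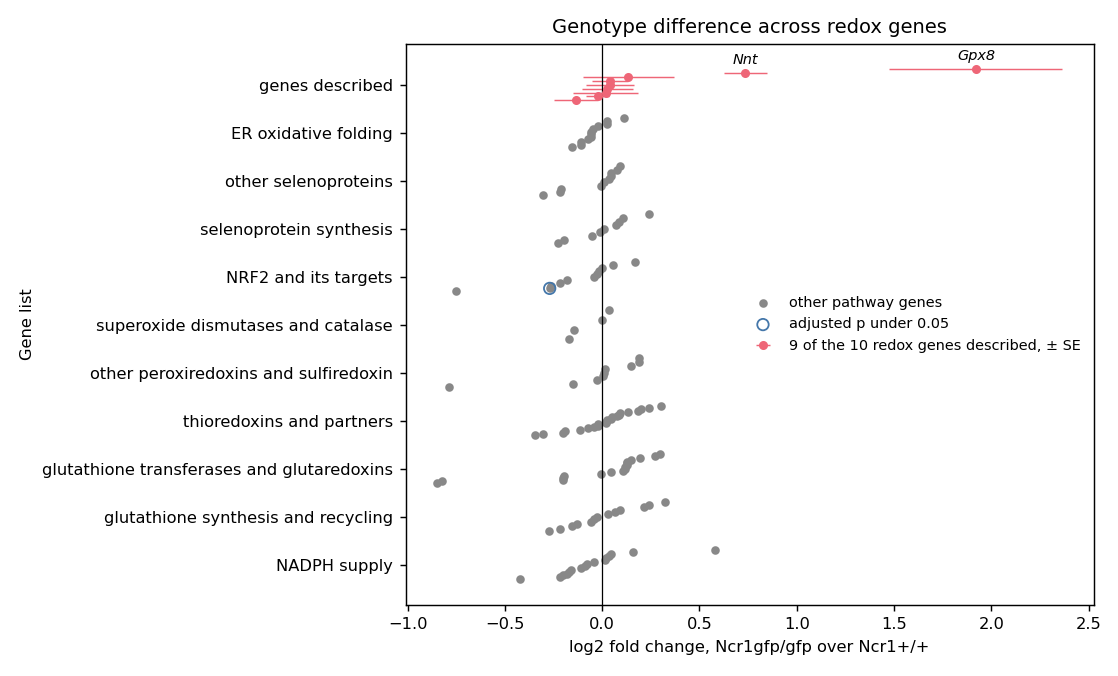
Log2 fold change of Ncr1gfp/gfp over Ncr1+/+ ILC1s on the x axis for 9 of the 10 redox genes (red, ± standard error) and for 123 other pathway genes by list (grey). *Nnt* at 0.74 and *Gpx8* at 1.92 lie to the right of every grey point, of which the highest is 0.58. Both were listed for this difference, so nothing is read from their place. The ringed point is *Osgin1*.

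Among the NADPH supply genes, 16 were tested, 6 with a positive and 10 with a negative log2 fold change. The largest was that of *Mthfd2l*, a mitochondrial folate enzyme, at 0.58 (3.13 ± 0.880 CPM in Ncr1gfp/gfp, 2.09 ± 0.638 CPM in Ncr1+/+; SD, n = 5 each). The cytosolic counterpart of *Idh2*, *Idh1*, had 5.24 ± 1.78 and 5.53 ± 1.40 CPM. *G6pdx*, which feeds the pentose phosphate pathway, had 36.8 ± 2.46 and 42.4 ± 5.28 CPM, with a log2 fold change of -0.20. *Idh1* and *G6pdx* were chosen for their role.

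For glutathione, 13 synthesis and recycling genes and 17 transferases and glutaredoxins were tested. *Ggct*, which breaks down glutathione-derived peptides, had the largest change of the former, 0.32 on the log2 scale (23.3 ± 2.52 against 18.6 ± 3.15 CPM). *Gstk1*, a glutathione transferase of mitochondria and peroxisomes, had the largest of the latter, -0.85, at low levels of 1.46 ± 0.950 and 2.64 ± 1.04 CPM. The remaining glutathione peroxidase genes, *Gpx2*, *Gpx3*, *Gpx5* and *Gpx6*, did not pass the filter. Of the glutathione peroxidase genes, *Gpx1*, *Gpx4* and *Gpx8* thus passed the filter. In Ncr1+/+ libraries *Gpx8* and *Gpx7* were both near its limit, at 0.874 ± 0.266 and 0.757 ± 0.564 CPM.

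The thioredoxin list held 22 tested genes, 13 with a positive and 9 with a negative log2 fold change. Thioredoxin itself, *Txn1*, had 48.0 ± 7.18 CPM in Ncr1gfp/gfp and 49.6 ± 3.52 CPM in Ncr1+/+ ILC1s, and its mitochondrial form *Txn2*, the partner of *Txnrd2* and *Prdx3*, had 46.3 ± 3.40 and 47.0 ± 3.06 CPM. Both were chosen for their role, and both differed by less than their standard errors of 0.10 and 0.08 on the log2 scale. The largest change of the list was in *Nxn*, a nucleoredoxin, at -0.35 (standard error 0.28). Of the 9 other peroxiredoxin, sulfiredoxin and sestrin genes, 6 had a positive and 3 a negative log2 fold change. *Prdx4*, the peroxiredoxin of the endoplasmic reticulum, had the largest, -0.79 with a standard error of 0.85, at 0.633 ± 0.811 and 1.11 ± 1.46 CPM, but 0.47 without Ncr1+/+ replicate 1.

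In the remaining lists, the largest changes were -0.17 for *Sod2*, the mitochondrial superoxide dismutase (4 genes tested), and -0.75 for *Hmox1*, the heme oxygenase that NRF2 induces (11 genes tested). They were 0.24 for *Sepsecs*, which builds selenocysteine on its tRNA (9 genes), and -0.30 for *Selenop*, which carries selenium (10 genes). For *Qsox2*, a disulfide-forming oxidase, the value was -0.15 (12 genes of oxidative folding). The adjusted p-values of these 5 genes and of *Mthfd2l*, *Ggct*, *Gstk1*, *Nxn* and *Prdx4* lay between 0.168 and 0.826 in edgeR's quasi-likelihood test. *Hmox1*, *Prdx4* and *Gstk1* varied widely within each genotype.

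*Nnt* and *Gpx8*, which were both chosen by their measured difference, both lie on the distal part of chromosome 13. Their starts are 6.29 Mb apart in the table, and *Nnt* lies at the end of the listed chromosome, with the last gene ending 0.0862 Mb beyond it. The other 8 genes lie on 7 other chromosomes. In the RefSeq annotation of GRCm38.p6, which matched all 10 names and chromosomes, 19 protein-coding genes lie between *Gpx8* and *Nnt*, of which 12 were tested here. In that annotation 19 protein-coding genes also follow *Nnt* on chromosome 13, so that *Nnt* is not the last gene of the chromosome there. Within 10 Mb of *Nnt*, 28 of 60 listed genes were tested. Of these, 3 were called, *Nnt* and *Gpx8* higher and *Emb* lower, against 0.733% of all genes. An adjusted p under 0.05 without a fold limit was reached by 5 of the 28, against 1.35%, and 6 of 28 did not overlap between the genotypes, against 3.11%. Without *Nnt* and *Gpx8*, on which the window rests, these counts were 1, 3 and 4 of 26 genes. An unadjusted p under 0.05 in edgeR's quasi-likelihood test was reached by 9 of the 28 and 7 of the 26, against 11.4% of all genes. The window was placed on *Nnt* with earlier results known, and the counts are a description of these genes only.

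*Emb*, 2.11 Mb from *Nnt* on the side of *Gpx8*, encodes embigin, an adhesion protein and partner of lactate transporters. Ncr1+/+ replicates 1 to 5 had 35.0, 23.5, 23.5, 24.7 and 21.8 CPM of *Emb*. Ncr1gfp/gfp replicates 1 to 5 had 19.0, 4.30, 7.68, 12.4 and 13.6 CPM. It thus went the other way from *Nnt* and *Gpx8*, again without overlap, and the log2 difference was -1.18 with a standard error of 0.25 (edgeR quasi-likelihood test, adjusted p = 0.0176). The adjusted p in this test was 0.0537 without Ncr1gfp/gfp replicate 3, 0.0601 without Ncr1+/+ replicate 1 and 0.135 without both.

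The tested gene next to *Gpx8* on the side of *Nnt* is *Gzma*, the granzyme A gene, which rose from 2931 ± 140 to 3976 ± 641 CPM (SD over 5 libraries). The rise was 0.44 on the log2 scale with a standard error of 0.07 (edgeR quasi-likelihood test, adjusted p = 0.00207), below the fold limit. *Itga1*, named after its values were seen, encodes CD49a, on which the cells were gated, and lies 4.37 Mb from *Nnt*. It rose from 779 ± 30.4 to 971 ± 35.1 CPM, or by 0.32 on the log2 scale with a standard error of 0.04 (same edgeR test, adjusted p = 0.000481). *Parp8*, also named after its values were seen, was lower without overlap, at 145 ± 9.33 and 167 ± 7.11 CPM, with an adjusted p of 0.139 in this edgeR test. The nearest tested genes on either side of *Nnt* overlapped between the genotypes. *Mrps30*, a mitochondrial ribosomal protein gene, had a log2 fold change of 0.14 (standard error 0.14), and *Paip1*, a translation factor gene 0.0943 Mb away, one of 0.16 (standard error 0.09), with adjusted p-values of 0.780 and 0.537 in edgeR's quasi-likelihood test. Genes with an adjusted p under 0.05 and genes above it were thus interspersed along the stretch. A gene above this limit was not shown to be without a difference.

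**Figure D4:**
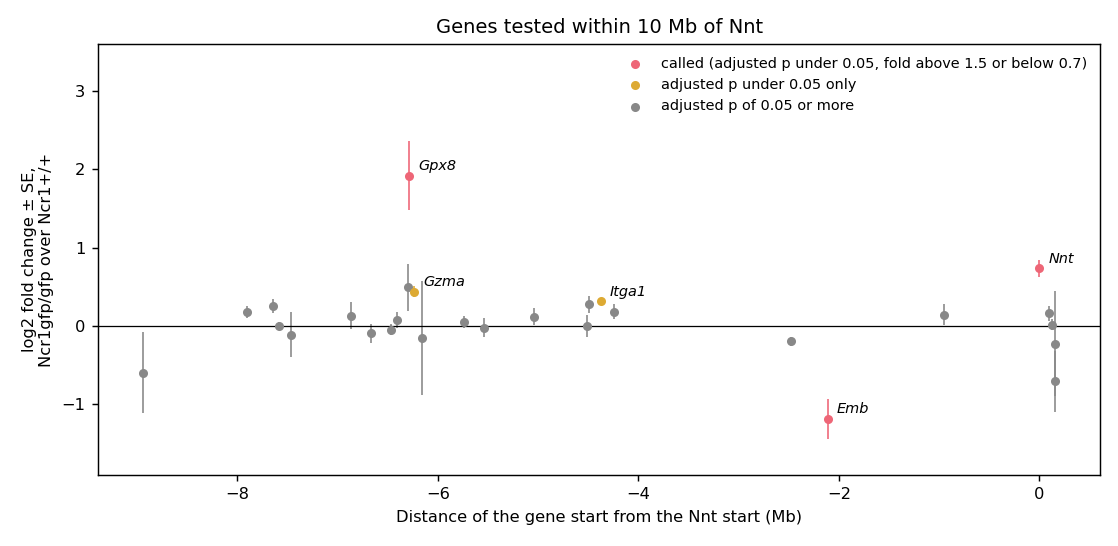
Log2 fold change ± standard error of the 28 tested genes within 10 Mb of *Nnt* against the distance of their start from that of *Nnt*. *Gpx8* at 1.92, *Nnt* at 0.74 and *Emb* at -1.18 are called (red), *Gzma* and *Itga1* have an adjusted p under 0.05 only (yellow), and the other 23 genes (grey) have an adjusted p of 0.05 or more.

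The genes whose pattern over the 10 libraries was most like that of *Nnt* were sought among all tested genes, by the root mean square difference of log2 CPM after each gene was centred on its Ncr1+/+ mean. They were *Traf3ip1* (0.13), *Klra5* (0.16) and *Errfi1* (0.18). *Traf3ip1*, which encodes a protein of cilia, had 23.4 ± 2.23 CPM in Ncr1gfp/gfp and 14.2 ± 0.774 CPM in Ncr1+/+ ILC1s, *Klra5*, a Ly49 receptor gene, 270.0 ± 39.6 and 175 ± 28.4 CPM, and *Errfi1*, an inhibitor of EGF receptor signaling, 31.5 ± 4.55 and 21.2 ± 1.40 CPM (SD over 5 libraries). Ly49 receptor genes resemble each other closely in sequence, and the counts of *Klra5* are uncertain for that reason. For *Gpx8*, the nearest were *Myadm* (0.46), *Auts2* (0.49) and *Pik3r6* (0.56), all farther from it than the genes nearest to *Nnt* were from *Nnt*. *Myadm* had 15.2 ± 4.74 CPM in Ncr1+/+ ILC1s and 46.04 to 52.46 CPM in the Ncr1gfp/gfp libraries. *Myadm* lies on chromosome 7, listed from 3289039, as does the targeted gene *Ncr1*, listed from 4289326. The part of this position in the *Myadm* difference was not tested. *Auts2* had 0.965 ± 0.170 CPM in Ncr1gfp/gfp and 0.199 ± 0.153 CPM in Ncr1+/+ ILC1s. The latter was close to the 0.132 to 0.190 CPM of 3 counts. As these genes were selected for a pattern that includes the difference between the genotypes, their own differences carry no test.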

How the data were processed

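Single-end RNA-seq libraries of sorted liver ILC1s, 5 Ncr1+/+ and 5 Ncr1gfp/gfp by the sample labels, were analysed. By the methods of the study, the authors amplified cDNA with a SMART-Seq v4 kit, which does not keep strand, trimmed reads, mapped to mm10 with STAR 020201 and obtained gene counts from HTSeq 0.6.0 with its defaults. The authors deposited the counts without normalization, with exon lengths and coordinates that reach 197002909 on chromosome 1 and name no build. They are not mm10 coordinates, since the listed spans of 9 of the 10 genes do not overlap their spans in GRCm38.p6, the assembly of mm10. HTSeq by default drops multiply mapped reads and counts by strand, so that near-identical or overlapping genes are uncertain. The file names no batches. The number that ends the column header of Ncr1gfp/gfp replicate 5 is out of sequence with those of the other libraries. The meaning of that number is not stated.

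From the counts, genes were filtered (filterByExpr), normalized (TMM) and tested in R 4.3.3 by edgeR 4.0.16 (quasi-likelihood test), with Benjamini-Hochberg adjustment over 11463 genes. Standard errors follow from the F statistic. RPKM is TMM CPM per kilobase of listed exon length. The steps were tested on simulated data. Counts of the 20 pairs of libraries of a genotype differed by more than sampling noise (chi-square per gene 9.18 to 24.0). At these depths 3 counts are 0.132 to 0.190 CPM, a limit for counting error only.

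The 10 genes, the pathway and marker lists and the window were chosen with earlier results of these data known. Other named genes are the called gene or the gene with the largest change of each list, called genes within 10 Mb of *Nnt*, the tested neighbours of *Nnt* and *Gpx8*, the 3 genes nearest each in pattern, and *Ncr1*. Alternatives were DESeq2 1.42.0, limma 3.58.1 (voom, quality weights per sample), upper-quartile normalization, a likelihood ratio test, other filters, thresholds and windows, the replicate number as a block, and leaving out each library. Leaving out both libraries with the most hepatocyte RNA, and counting the called among the 10 genes under every alternative, were added after seeing the data. Sequences were not used here.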

Additional observations from a re-analysis of the deposited data

Results flagged for a closer look

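In 66 groups of 5 libraries, for the named genes in each genotype, the gap between the extreme library and its nearest neighbour was compared with the range of the group, and 5 groups passed the limit of 0.71, where chance gives 3.3. None was of the 10 redox genes. *Prdx4* was at 3.70 CPM in Ncr1+/+ replicate 1, against 0.707 CPM in the next library, and at 2.02 CPM in Ncr1gfp/gfp replicate 4, against 0.594 CPM. *Emb* was at 35.0 CPM in Ncr1+/+ replicate 1, against 24.7 CPM, and *Cdc20b*, which overlaps *Gpx8*, at 4.32 CPM in the same library, against 2.96 CPM. *Paip1* was low in Ncr1+/+ replicate 3, at 45.9 CPM against 52.9 CPM.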

How the results depend on the processing

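None of the 171 log2 fold changes of the 10 genes under alternatives moved by more than the spread between replicates, and none of the called values changed sign. Of the other named genes, *Prdx4*, which was not called, was at -0.79 on the log2 scale and turned to 0.58 without both hepatocyte-rich libraries. The range over alternatives other than leaving out a library was 0.63 to 0.74 for *Nnt* and 1.63 to 1.93 for *Gpx8*. Of the 10 genes, 2 were called, but 1 (*Nnt*) with limma-voom, with the replicate number as a block and without both libraries with the most hepatocyte RNA, and 1 (*Gpx8*) with an absolute log2 fold change above 1. Left out in turn, each library gave 1 or 2 called. The cause was not tested. Within 10 Mb of *Nnt*, 3 genes were called, 1 without both hepatocyte-rich libraries, 5 with no fold limit, and between 1 and 3 with each library left out. The pathway list had 0 called genes, or 1 with no fold limit, and 0 in each fit without a library. Over all genes, 84 were called, between 60 and 98 with a library left out, 131 with no filter, 138 with the likelihood ratio test, 155 with no fold limit and 23 with an absolute log2 fold change above 1. Replicate numbers are shared by both genotypes, but same-numbered libraries did not deviate together (correlations between -0.017 and 0.044), and 0 of 5 Ncr1+/+ libraries correlated best with its own number. With this replicate block 87 genes were called over all, 2 within 10 Mb of *Nnt* and 0 of the pathway list. *Gpx7* had 6 to 35 reads per library, and *Prdx4* 1 to 66.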
